A study of Mus musculus with 6 samples.

Results

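The genes described here are 10 genes of the NF-κB pathway, the subunit genes Nfkb1, Nfkb2, Rel, Rela and Relb and the NF-κB-induced feedback genes Nfkbia, Nfkbie, Nfkbid, Tnfaip3 and Traf1. They were given as a list of gene names, with no threshold on measured values. All 10 were found among the 15861 genes of the deposited count table, and all 10 were among the 10926 genes that passed the filter on low counts. Polyadenylated RNA was sequenced from mouse germinal centre B cells, which had been sorted by the markers B220+, GL7+ and FAS+. WT were 3 mice of the genotype C57BL/6 with Lsd1 f/f and no Cre in the label. KO were 3 mice with the same Lsd1 f/f alleles and Cgamma-cre+/-. The floxed alleles are thus shared by both groups, whereas Cre is present in KO only. The series design calls the animals littermates, and the sources used here give neither ages, nor the immunisation, nor the share of cells in which Cre had acted.

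NF-κB proteins are transcription factors that act as dimers of Rel-homology subunits. At rest they are held in the cytoplasm by IκB proteins. Signals from the B cell receptor, Toll-like receptors or CD40 activate the IKK kinases, which mark IκB for destruction and free the dimers, whereas a slower route through the kinase NIK processes the Nfkb2 precursor and releases dimers with RELB. Many of the genes that NF-κB switches on encode its own inhibitors, so the transcripts of the feedback genes are often read as a trace of pathway output. In germinal centres the pathway is known mainly from light zone cells that receive help from T cells. There c-REL, the product of Rel, is needed to maintain the reaction, and RELA takes part in the step to plasma cells.

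The sequences below are shown because the members are known targets of the pathway or parts of it, and because they hold the letters of the κB decamer consensus, the sequence that NF-κB dimers are known to bind. Windows from 250 bases before to 50 bases after annotated transcript starts were taken from RefSeq (GRCm38.p6, the same sequence build as mm10) for 8 of the 10 members. Nfkb1 and Relb had no entry. The consensus is a run of G, a purine, a pair of any bases, a pair of pyrimidines and a closing pair of C, and both strands were searched. It was present for 6 of the 8 members, in 75% of them against 9.55% of all 27025 genes with a window (8.46% of 32851 single windows). Among the 8638 tested genes with a window the share was 12.1%. A match in any window counted, and Nfkb2 and Nfkbid had 3 windows each and Tnfaip3 had 2. The members with a match were Nfkb2, Rel, Nfkbia, Nfkbie, Nfkbid and Tnfaip3. Sequences run in the direction of the gene, and capitals mark the bases covered by the consensus on either strand. The Tnfaip3 matches began 12 and 125 bases before the transcript start (chr10:19015403-19015432 and chr10:19015516-19015545, minus strand). Both lie outside the annotated exons of the members but within Tnfaip3 as GENCODE vM21 draws it. The Nfkbie match (chr17:45555584-45555613, plus strand) lies upstream of the gene. Of the 2 separate matches in the window of the second Nfkbid start, the one shown (chr7:30422170-30422199, plus strand) is intronic. The Nfkb2 match shown (chr19:46304689-46304718, plus strand) lies in an annotated exon, and Nfkb2 had further matches that are not printed.
Tnfaip3, near the start: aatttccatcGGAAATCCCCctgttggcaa
Tnfaip3, farther upstream: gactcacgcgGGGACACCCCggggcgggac
Nfkbie: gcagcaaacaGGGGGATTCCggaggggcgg
Nfkbid: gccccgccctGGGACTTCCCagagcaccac
Nfkb2: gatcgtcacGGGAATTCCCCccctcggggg
For Nfkbia and Rel, the members with the next largest differences between the genotypes after Tnfaip3, a longer stretch of 200 bases upstream of the start is given (chr12:55492658-55492857 and chr11:23770980-23771179, both on the minus strand). Neither overlaps an annotated exon of the members, and exons of other genes were not checked here.
Nfkbia: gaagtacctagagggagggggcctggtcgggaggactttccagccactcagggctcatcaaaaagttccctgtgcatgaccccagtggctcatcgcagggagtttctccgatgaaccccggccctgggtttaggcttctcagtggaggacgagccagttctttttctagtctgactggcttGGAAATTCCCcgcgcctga
Rel: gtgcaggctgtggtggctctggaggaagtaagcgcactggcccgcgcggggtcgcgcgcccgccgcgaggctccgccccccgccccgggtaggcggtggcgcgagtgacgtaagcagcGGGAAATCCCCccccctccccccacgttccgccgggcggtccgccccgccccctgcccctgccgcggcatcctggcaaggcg
A match describes these letters only and is no measurement of binding.

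The WT libraries held 3390805 to 5524852 counts and the KO libraries 12325300 to 14327654, a mean ratio of 3.13, so genotype and whatever set the depth cannot be told apart. Kdm1a, the gene of LSD1, was read at 134, 85.2 and 92.6 TMM-normalised CPM (counts scaled to a common library size) in the WT libraries and at 81.9, 33.0 and 21.8 in KO, a log2 difference of -1.19 (SE 0.50, edgeR adjusted p = 0.393, and 0.0169 without KO 1). These gene-level counts do not separate the floxed exons from the rest. The library labelled KO 1 therefore lay just below the lowest WT library, and values without it are given below where they matter. Of the germinal centre genes, Bcl6 was present in all 6 libraries at 201 to 322 CPM (here of the library total), whereas Mef2b had at most 6 counts in any library. Of the 9 germinal centre and B cell markers tested and reported here, 8 were below 0 in KO, with a median of -0.25. At an unadjusted p under 0.05, 2 were lower (Cd79a and Gcsam), and none passed (edgeR). The part of this shift in the values of the members was not tested. Of the 13 T cell markers in the table, Cd3d and Cd3g had 15 counts or fewer and Cd8a had 1 or 0. Cd4 was detected in every library, from 1.61 CPM in KO 2 to 11.6 in KO 3 (152 counts), with 2.11 to 7.37 for WT. Icos was also highest in KO 3 (2.82 CPM), and Cd28 was highest in KO 1 (2.76 CPM). The sum of the 13 ran from 334 to 424 CPM for WT and from 322 to 356 for KO. Most of it came from Cd2 (107 to 169 CPM) and Lck (149 to 241 CPM). The 20 macrophage and dendritic cell markers, by contrast, summed to 1003, 1792 and 3334 CPM in WT and to 818, 871 and 3904 CPM in KO, so that WT 3 and KO 3 were the richest in them. In bulk RNA fewer cells of a type and less RNA per cell cannot be told apart.

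The comparison of KO with WT addresses whether pathway transcripts are altered in germinal centre B cells of mice with conditional loss of Lsd1. None of the 10 members passed the test over all genes, in either direction (edgeR quasi-likelihood test, Benjamini-Hochberg adjusted p from 0.271 to 0.96). Over all genes tested 0.0824% were called (0.0732% higher and 0.00915% lower). DESeq2 and limma-voom called no member either. Tnfaip3, the gene of the ubiquitin-editing inhibitor A20, was the only member whose KO libraries all lay above the WT libraries, and the only one with an unadjusted p under 0.05. Over all genes tested, groups without overlap were found in 18% (10% higher in KO and 7.95% lower), and 12.6% had an unadjusted p under 0.05. A count of 1 in 10 members is thus no more than the background. The median log2 fold change was 0.09 over the 10 members and 0.01 over all genes tested, with 7 members and 51.3% of all genes above 0. By role, the 5 subunits had a median of -0.10 (2 above 0 and 3 below) and the 5 feedback genes one of 0.17 (5 above 0). The subunit direction was not stable, and the feedback median changed sign in a single alternative. The subunit median was 0.12 without KO 2, 0.011 without WT 3 and KO 3, 0.028 with library size alone as the scaling and 0.076 with a trend on length and GC content removed, and -0.27 without WT 2 and -0.24 without KO 1. Without WT 2, 2 of the 5 feedback genes were above 0 and their median was -0.0096. In the other alternatives the feedback median ran from 0.079 without KO 3 to 0.46 with the length and GC trend removed.

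**Figure D1:**
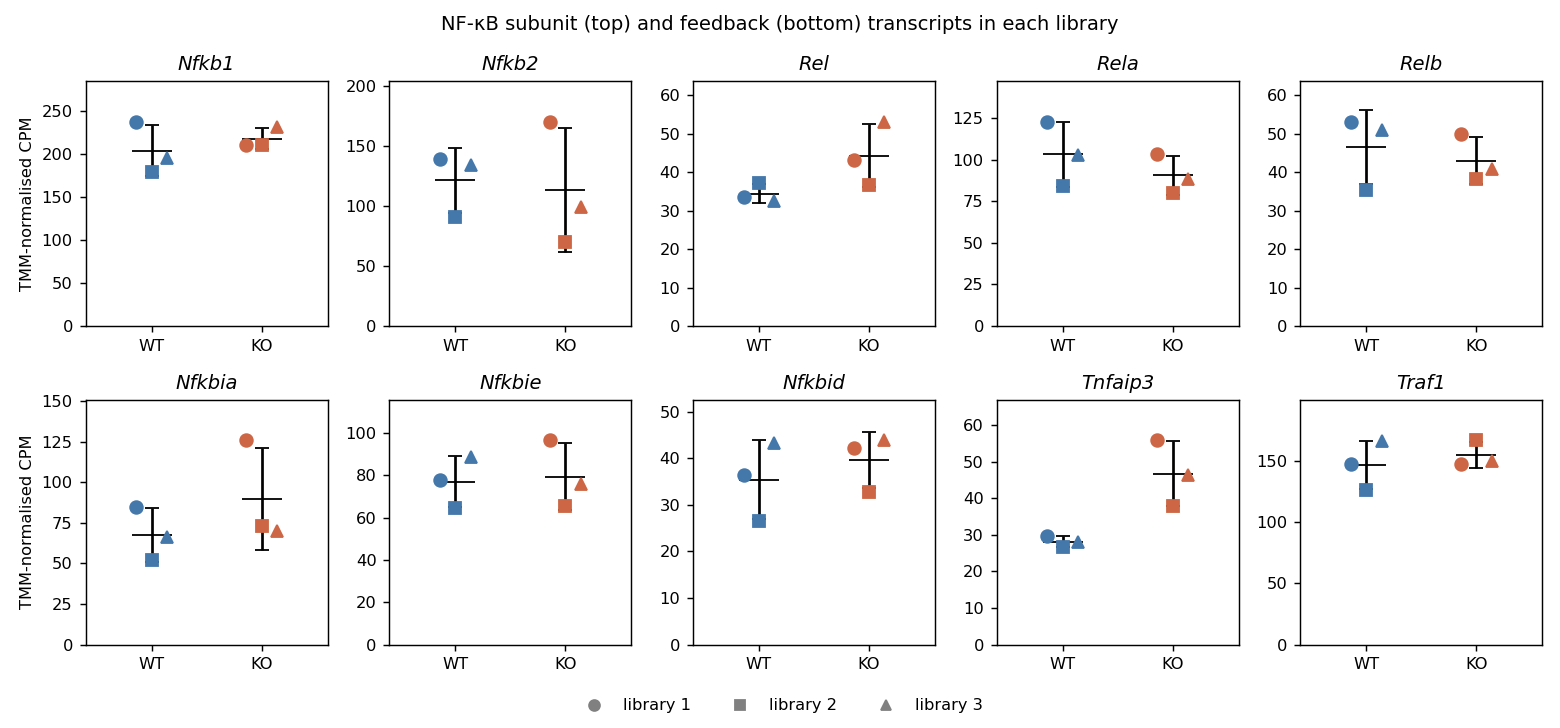
TMM-normalised CPM (linear axes from 0) of each subunit gene (top row) and feedback gene (bottom row) in the 3 WT libraries (blue) and the 3 KO libraries (orange), with symbols for the library number and bars for the mean ± SD. The groups overlap in 9 of the 10 panels, and for Tnfaip3 the KO libraries (37.9 to 55.8) lie above the WT libraries (26.6 to 29.7).

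Among the subunits, Nfkb1, which encodes the precursor of a subunit without an activation domain of its own, was read at 237, 179 and 195 CPM in the WT libraries and at 210.1, 211 and 231 in the KO libraries. The KO values lay inside the WT range, and the log2 fold change was 0.09 (SE 0.20, 95% interval -0.34 to 0.52, edgeR adjusted p = 0.894). Its position is chromosome 3, 135584655 to 135691547 on the minus strand (mm10). Rela, which encodes the main activating partner in canonical dimers (chromosome 19, 5637483 to 5648130, plus strand), was read at 123, 84.1 and 103 CPM in the WT libraries and at 103, 80.3 and 88.3 in the KO libraries. The KO mean was lower by less than the WT spread, at 90.7 ± 11.7 CPM against 103 ± 19.4 (SD, n = 3 each). The log2 fold change was -0.19 (SE 0.21, 95% interval -0.66 to 0.28, edgeR adjusted p = 0.764), and 0.08 once a trend on length and GC content was removed.

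Rel (chromosome 11, 23736847 to 23770970, minus strand) had the largest log2 fold change among the subunits. Its levels were 33.6, 37.1 and 32.4 CPM in the WT libraries and 43.1, 36.6 and 53.0 in the KO libraries. KO 1 and KO 3 lay above all WT libraries, whereas KO 2 lay just below WT 2, so the groups overlapped. The log2 fold change was 0.36 (SE 0.22, 95% interval -0.12 to 0.84), and the gene did not pass (edgeR adjusted p = 0.516). This value depended on the treatment of length and GC content. Rel has the longest principal transcript of the members, 7.47 kb, and its log2 fold change was 0.0092 after the length and GC trend was removed from each library. It was 0.19 without KO 3 and 0.17 without WT 3 and KO 3 together.

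Nfkb2 and Relb encode the pair of the non-canonical route. Nfkb2 (chromosome 19, 46304320 to 46312385, plus strand) was the most variable member. It was read at 139, 90.5 and 134 CPM in the WT libraries and at 170.0, 70.2 and 99.4 in the KO libraries, so that a KO library was the highest and another the lowest of all 6. The log2 fold change was -0.10 (SE 0.32, 95% interval -0.81 to 0.61, edgeR adjusted p = 0.94), with -0.53 without KO 1 and 0.16 without KO 2. Its exons share 531 bases with the non-coding gene AC114539.1, which is not analysed here, and 299 with Psd, both on the other strand. Psd was read at 11.1, 5.43 and 8.55 CPM (library total) for WT, against 20.6, 4.05 and 6.09 for KO, highest in KO 1 and lowest in KO 2 as was Nfkb2. Without knowledge of the strand setting the reads of this stretch cannot be assigned. Relb (chromosome 7, 19606217 to 19629438, minus strand) was read at 53.0, 35.4 and 50.8 CPM in the WT libraries and at 49.9, 38.3 and 40.7 in the KO libraries. All KO values fell within the WT range, with a log2 fold change of -0.11 (SE 0.23, 95% interval -0.61 to 0.40, edgeR adjusted p = 0.9).

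**Figure D2:**
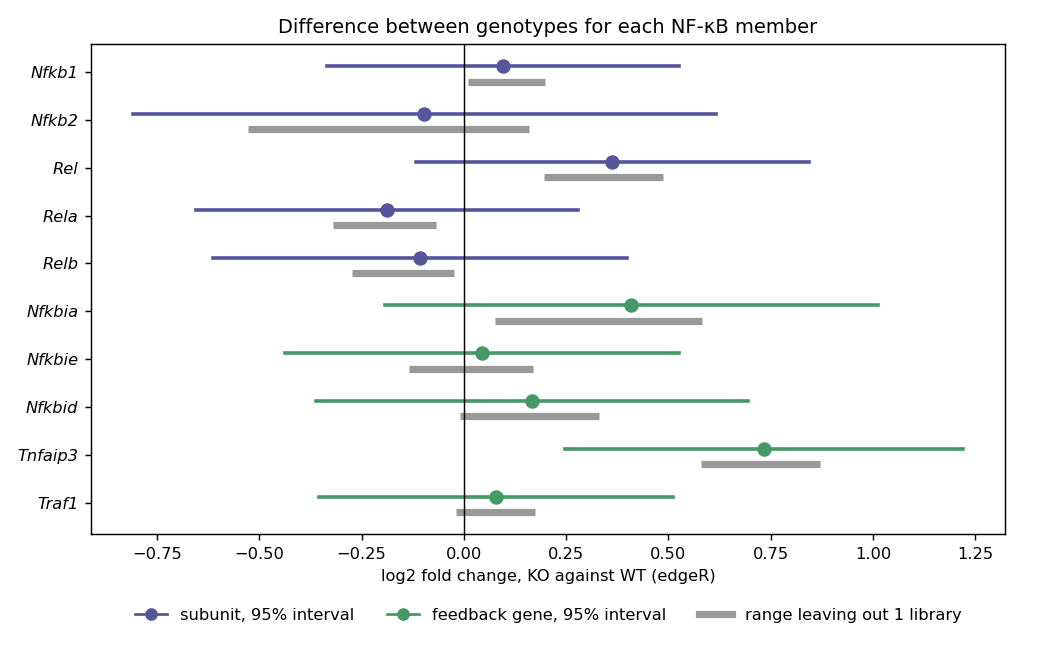
log2 fold change of KO against WT for the 10 members (edgeR), with points for the estimate, coloured lines for its 95% interval and grey bars for the range of estimates when 1 library at a time is left out. The interval of Tnfaip3 (0.25 to 1.22, not adjusted for the number of genes) is the only one that does not include 0, and the grey bar of Nfkb2 is the longest, from -0.53 to 0.16.

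Tnfaip3 (chromosome 10, 19000910 to 19015657, minus strand) encodes A20, which removes and edits the ubiquitin chains that carry the signal to IKK. It was read at 29.7, 26.6 and 28.1 CPM in WT, from 113, 136 and 90 counts. The KO libraries held 55.8, 37.9 and 46.5 CPM, from 735, 537 and 650 counts. The WT libraries were close to each other and every KO library lay above them. The means were 28.1 ± 1.55 CPM in WT and 46.7 ± 8.96 in KO (SD, n = 3 each), a 1.66-fold difference (95% interval 1.19 to 2.33, not adjusted for the number of genes). The log2 fold change of 0.73 (SE 0.22) did not pass (edgeR adjusted p = 0.271). By its unadjusted edgeR p the gene was number 269 of the 10926 tested. Over the 17 alternative analyses the log2 fold change ran from 0.51 with the length and GC trend removed to 0.87 without KO 2, and the adjusted p from 0.153 to 0.9997. Without the library labelled KO 1 it was 0.58, and without the macrophage-rich libraries WT 3 and KO 3 it was 0.73.

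Nfkbia (chromosome 12, 55489410 to 55492647, minus strand) encodes IκBα, the inhibitor that is destroyed first on activation and resynthesised within the same response. Its levels were 84.8, 52.0 and 66.1 CPM in the WT libraries and 126, 73.3 and 70.1 in the KO libraries. The library labelled KO 1 stood above the rest, and the other KO libraries lay within the WT range. The log2 fold change was 0.41 (SE 0.27, 95% interval -0.19 to 1.01, edgeR adjusted p = 0.56). It was 0.076 without KO 1 and 0.25 without WT 2, so the size of the difference rested largely on those libraries. With the length and GC trend removed it was 0.65, the highest of the alternatives. KO 1 is also the KO library in which Kdm1a was closest to WT.

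Nfkbie, the gene of IκBε (chromosome 17, 45555703 to 45563169, plus strand), was read at 78.0, 64.5 and 88.8 CPM in the WT libraries and at 96.6, 65.6 and 76.0 in the KO libraries, with a log2 fold change of 0.04 (SE 0.22, 95% interval -0.44 to 0.53). Nfkbid (chromosome 7, 30421732 to 30428746, plus strand) encodes IκBNS, a nuclear IκB protein that is induced by the pathway and needed for normal B cell responses. It was read at 36.5, 26.6 and 43.3 CPM in the WT libraries and at 42.2, 32.9 and 43.9 in the KO libraries. Its log2 fold change was 0.17 (SE 0.24, 95% interval -0.36 to 0.70), with -0.0096 without WT 2 and 0.46 with the length and GC trend removed. Both genes overlapped between the genotypes and neither passed (edgeR adjusted p = 0.96 for Nfkbie and 0.825 for Nfkbid).

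Traf1 (chromosome 2, 34941750 to 34961772, minus strand) encodes an adaptor of TNF receptors that is itself a classical NF-κB target. It was read at 147, 126 and 166 CPM in the WT libraries and at 147, 166 and 149.7 in the KO libraries. KO 2 was just above the highest WT library and the groups overlapped, with a mean of 155 ± 10.4 CPM against 146 ± 19.8 in WT (SD, n = 3 each). KO against WT gave 0.08 on the log2 scale (SE 0.20, 95% interval -0.35 to 0.51, edgeR adjusted p = 0.915). The intervals of 8 members, all except Tnfaip3 and Nfkbia, exclude a 2-fold difference in either direction, before any adjustment for the number of genes.

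Some libraries were low or high for several members at once. WT 2 was the lowest WT library for 9 of the 10 members, all but Rel, against 35.5% of all genes tested. KO 2 was the lowest KO library for 7 members, against 36.6% of all genes, and the library labelled KO 1 was the highest KO library for 6, against 36.9%. The full KO order, from KO 1 through KO 3 to KO 2, was shared by 5 members, and the share of all genes with this order was not computed. Relative to the WT mean, the median over the 10 members was 0.15 log2 units in WT 1, -0.26 in WT 2 and 0.08 in WT 3. It was 0.30 in KO 1, -0.011 in KO 2 and 0.06 in KO 3. KO 1 had all 10 members above the WT mean, WT 1 had 9 and WT 3 had 6, whereas WT 2 had 1 and KO 2 and KO 3 had 5 and 6. The gene-wise biological coefficient of variation was 20.0% to 28.7% for the members, with a median of 21.8%, against a median of 25.5% over all genes tested. The macrophage marker sums of WT 2 and KO 2 were the middle values of their groups, and 13 of these 20 markers were lower in KO 2 than in KO 1. Their part in the order of the members was not tested.

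**Figure D3:**
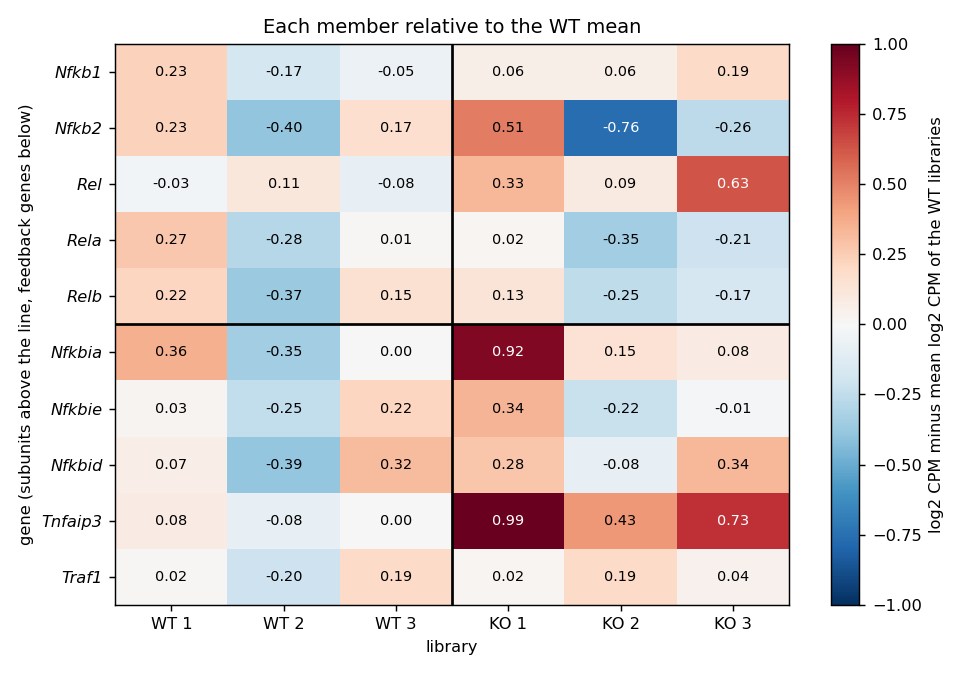
Each member in each library as log2 CPM minus the mean log2 CPM of the WT libraries (colour scale from -1 to 1, values printed in the cells), with subunits above and feedback genes below the horizontal line and WT left of the vertical line. The WT 2 column is below 0 except for Rel, and the KO 1 column is above 0 throughout, with 0.99 for Tnfaip3 and 0.92 for Nfkbia.

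Levels can be compared between genes only per transcript length. Per kb of the longest principal transcript, the most abundant subunit transcript in WT was Nfkb1 at 49.4 ± 7.27 CPM per kb. It was followed by Nfkb2 at 38.6 ± 8.52 and Rela at 38.1 ± 7.15, which did not differ beyond their spread, then Relb at 21.0 ± 4.36 and Rel at 4.61 ± 0.329 (SD, n = 3). In KO the same genes held 52.8 ± 2.92, 36.0 ± 16.3, 33.4 ± 4.32, 19.5 ± 2.76 and 5.93 ± 1.11 CPM per kb. Rel thus made up 3.12 ± 0.773% of the summed subunit level in WT and 4.05 ± 0.762% in KO, with overlap. The share of Rela was 25.8, 24.9 and 24.5% in WT and 22.2, 23.6 and 22.3% in KO, without overlap. With the union of all annotated exons as length, a choice made after the data were seen, the Rela shares overlapped and Rela, not Nfkb1, had the highest level per kb.

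Among the feedback genes Nfkbia (42.9 ± 10.4 CPM per kb in WT) and Traf1 (42.6 ± 5.76) were the most abundant and did not differ beyond their spread. With exon unions as lengths Traf1 was at 16.6 CPM per kb in WT, below Nfkbie (25.3) and Nfkbia (42.0). Per principal transcript Nfkbie followed at 31.7 ± 5.01 and Nfkbid at 17.4 ± 4.13. Tnfaip3 was the scarcest in both groups, at 6.36 ± 0.35 CPM per kb in WT and 10.6 ± 2.03 in KO (SD, n = 3 each). Its share of the summed feedback level was 4.38, 5.22 and 4.11% in WT and 6.45, 5.85 and 6.95% in KO, again without overlap, also with exon unions as lengths. The share of Nfkbie was lower in every KO library (18.4 to 20.6%) than in WT (20.9 to 23.7%), but overlapped with exon unions. The level of Nfkbie itself was not lower, at 32.6 ± 6.49 CPM per kb in KO against 31.7 ± 5.01 in WT. No test was run on these shares, since 3 libraries against 3 do not allow an exact p under 0.05.

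**Figure D4:**
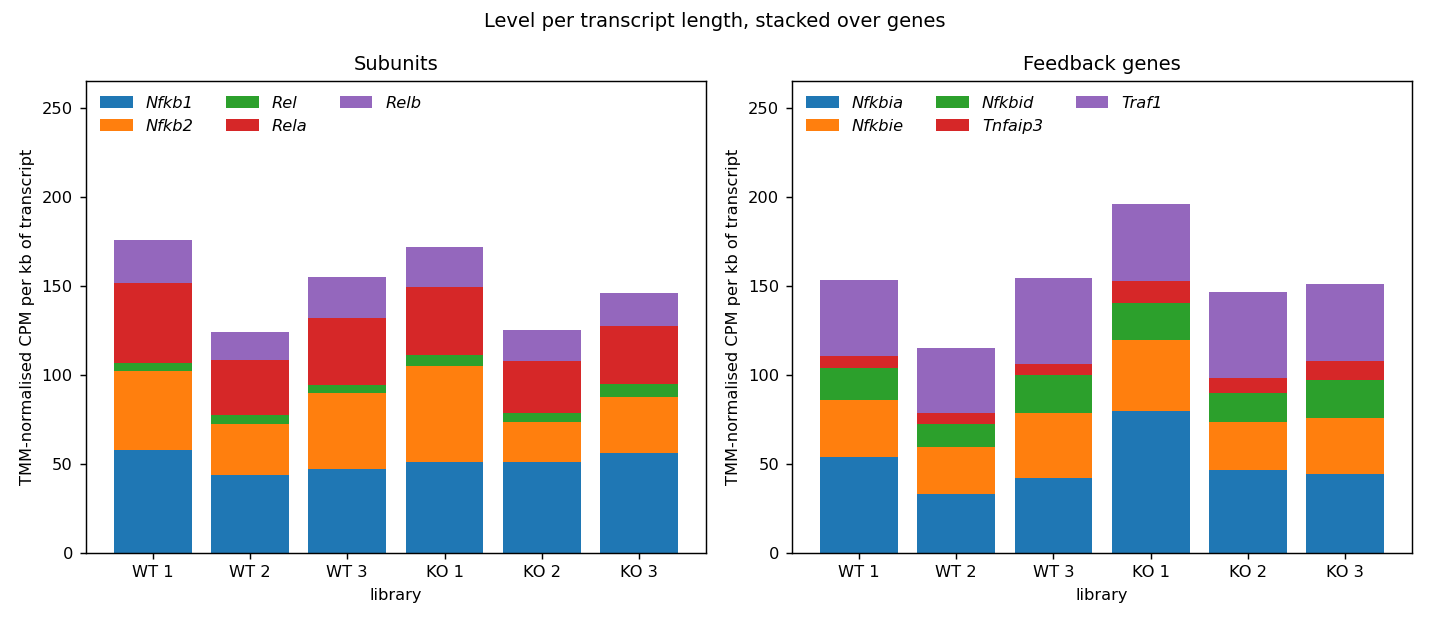
TMM-normalised CPM per kb of the longest principal transcript in each library, stacked over the 5 subunit genes (left) and the 5 feedback genes (right), axes from 0. The subunit sum ran from 124 in WT 2 to 176 in WT 1 and the feedback sum from 115 in WT 2 to 196 in KO 1, with Rel and Tnfaip3 as the thinnest bands.

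The other genes of the pathway were read from lists by role, 67 genes in all, of which 64 passed the filter. None passed over all genes in either direction (edgeR), 6 were higher and 2 lower at an unadjusted p under 0.05, and groups did not overlap for 13 (12 higher, 1 lower). Over all genes tested, 7.1% were higher and 5.5% lower at an unadjusted p under 0.05, and groups did not overlap for 10% higher and 7.95% lower. Their median log2 fold change was 0.14. All 5 IKK and IKK-related kinase genes were above 0, with a median of 0.31, which was 0.58 without WT 2 and 0.17 without WT 3. Ikbkb, which encodes the catalytic subunit IKKβ, was read at 98.2, 77.4 and 76.1 CPM in the WT libraries and at 111, 100.2 and 105 in the KO libraries, without overlap (log2 fold change 0.33, SE 0.20). Ikbke, an IKK-related kinase gene, differed by 0.91 on the log2 scale (SE 0.46) at levels of 3.43 to 11.8 CPM, Tbk1 one of 0.30 (SE 0.25) and Ikbkg, the scaffold subunit gene, one of 0.25 (SE 0.21). With the length and GC trend removed, 4 of the 5 were above 0 and the median was 0.11.

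Canonical adaptors and kinases had a median of 0.29, with 8 of 12 above 0. Map3k7, the gene of the kinase TAK1 upstream of IKK, was read at 62.8, 79.4 and 65.1 CPM in the WT libraries and at 98.3, 93.2 and 92.1 in the KO libraries, without overlap (log2 fold change 0.45, SE 0.19, edgeR adjusted p = 0.367). Its partner Tab2 (0.36, SE 0.19) and the ubiquitin ligase gene Traf6 (0.35, SE 0.21) were likewise without overlap, and Ripk1, a scaffold kinase gene of TNF receptor signalling, had 0.52 (SE 0.24). With the length and GC trend removed the values were 0.18 for Map3k7, 0.11 for Tab2, 0.084 for Traf6 and 0.26 for Ripk1, and the list median was 0.15. The other IκB family genes were split. Nfkbib, the gene of IκBβ, had a log2 fold change of -0.41 (SE 0.22), Nfkbiz, of a nuclear IκB protein, 0.38 (SE 0.42), and Bcl3, of a further nuclear member, 0.18 (SE 0.34). Without KO 1 all 3 were below 0, with Nfkbiz at -0.06 and Bcl3 at -0.15.

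In the non-canonical list 4 of 8 genes were above 0. Traf2 and Birc3 encode partners in the complex that keeps NIK low. Traf2 was read at 105, 76.8 and 116 CPM in the WT libraries and at 69.0, 73.3 and 61.3 in the KO libraries, every one of them below the WT range (log2 difference -0.55, SE 0.21, edgeR adjusted p = 0.331). Birc3, which is also an NF-κB target, was read at 74.8, 87.8 and 80.4 CPM in the WT libraries and at 154, 92.5 and 102 in the KO libraries, all above WT (0.52, SE 0.23, edgeR adjusted p = 0.387), with 0.25 without KO 1. For the receptor gene Cd40 the log2 fold change was -0.43 (SE 0.22) and for Tnfrsf13c, the BAFF receptor gene, it was 0.37 (SE 0.21). Of the 11 genes in the list for ubiquitin editing, 6 were above 0. Otud7b, a deubiquitinase gene, was read at 28.4, 21.1 and 20.9 CPM in the WT libraries and at 37.8, 33.0 and 38.0 in the KO libraries (log2 fold change 0.63, SE 0.22, edgeR adjusted p = 0.3). Cyld, another deubiquitinase gene, had 0.46 (SE 0.22), but 0.071 with the length and GC trend removed, Rnf11 had 0.46 (SE 0.27), and Rbck1, a component of the linear ubiquitin ligase, had -0.44 (SE 0.23).

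NF-κB target genes known from B cells did not move together. Of 25 tested, 13 were above 0 and 12 below, with a median of 0.07, and the 3 without a test (Ccl3, Ccl4 and Ier3) had at most 13 counts in any library. Cd80, a costimulatory ligand gene, was read at 2.36, 5.47 and 3.74 CPM in the WT libraries and at 12.1, 12.3 and 13.9 in the KO libraries (log2 fold change 1.71, SE 0.37, edgeR adjusted p = 0.137). It did pass by DESeq2 (adjusted p = 0.0282) and by edgeR without a filter, over a range of 0.0282 to 0.704 in all alternatives. Irf4, whose product drives plasma cell formation, was read at 46.7, 30.5 and 34.3 CPM in the WT libraries and at 104, 49.3 and 85.5 in the KO libraries (1.10, SE 0.29, edgeR adjusted p = 0.213). Cflar, an inhibitor of death receptor signalling, was at 0.65 on the log2 scale (SE 0.25) and Ltb, the lymphotoxin beta gene, at -0.57 (SE 0.24). Prdm1, a plasma cell regulator gene, was read at 4.23, 2.90 and 1.47 CPM (of the library total) in the WT libraries and at 28.7, 3.14 and 15.2 in the KO libraries. The KO order of Prdm1 was that of Irf4 and Tnfaip3, and the WT order of Prdm1 was not. The sum of the 6 plasma cell markers, which include Irf4 and Prdm1, was 1416, 2284 and 1674 CPM in the WT libraries and 1900, 2068 and 2533 in the KO libraries. Most of this sum was Jchain, at 1388, 1682 and 2001 CPM in the KO libraries. Sdc1 (9.01, 3.28 and 7.31 CPM) and Tnfrsf17 (1.62, 0.56 and 0.84 CPM, 20 counts or fewer) had the KO order of Tnfaip3. Jchain and Xbp1 (361, 331 and 417 CPM) did not. How many of all genes share this KO order was not computed, and the part of these markers in the Tnfaip3 values was not tested.

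**Figure D5:**
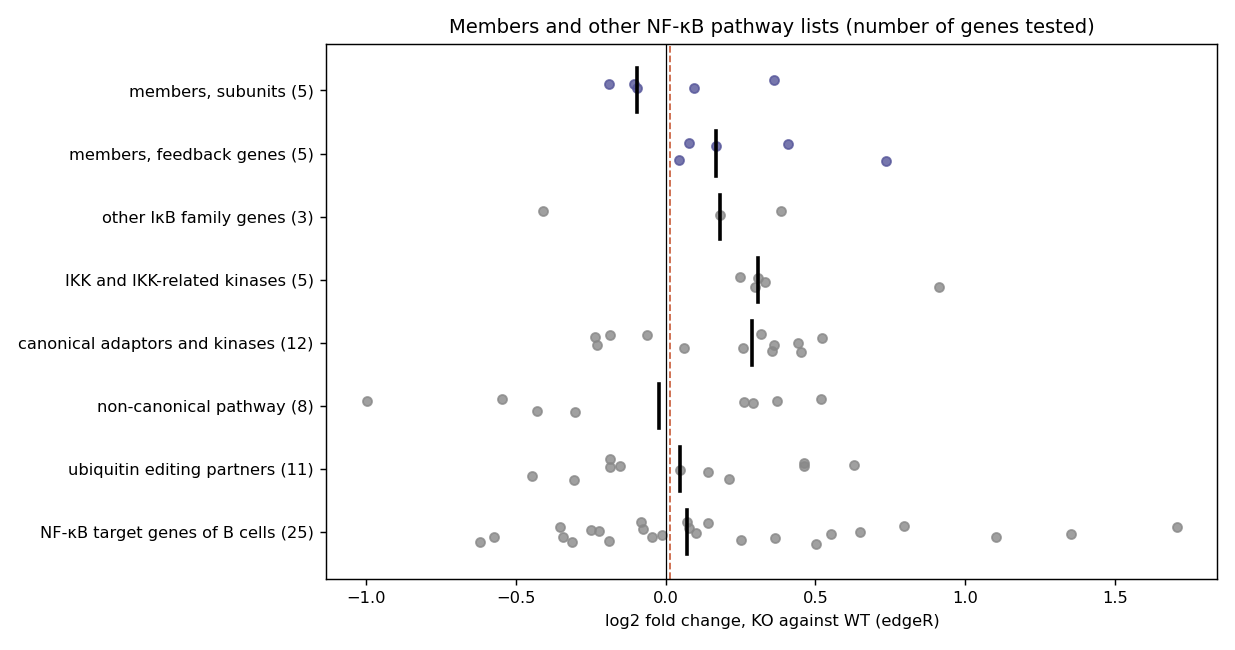
log2 fold change of KO against WT (edgeR) for each tested member (blue) and each tested gene of 6 other pathway lists (grey), with black bars for list medians, a solid line at 0 and a dashed line at the median of all genes tested (0.01). The kinase list lies wholly above 0, from 0.25 to 0.91, whereas the target genes spread from -0.62 to 1.71.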

How the data were processed

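Raw counts per gene symbol, 1 column per mouse, were deposited by the authors in 1 table. Per the submitters' processing notes they were made with CASAVA, STAR 2.5.2 and featureCounts 1.5.2 on mm10. The sources used here do not give the annotation, the strand setting or the treatment of multi-mapped reads. Genes at 0 in every library are not in the table. The quasi-likelihood test of edgeR 4.0.16 (R 4.3.3) was run on these counts without covariates, after filterByExpr and TMM scaling. It was two-sided, with robust dispersions and Benjamini-Hochberg adjusted p-values over all genes tested, called under 0.05. Standard errors and 95% intervals are those implied by the F statistic. CPM of single genes uses TMM-scaled library sizes, and CPM of the library total, used for markers and Prdm1, does not. Positions, lengths and exon overlaps come from GENCODE vM21 (mm10), and 98.4% of tested genes had a length and GC content. The members and lists were chosen with earlier results of these data known. The naming rule took all 10 members, Kdm1a and up to 4 genes with the smallest p per other list (Prdm1, Psd and the genes without a test were named after their values were seen). The alternatives were 3 other scalings, 2 other filters, DESeq2 1.42.0, limma-voom 3.58.1, the replicate block, each library left out, WT 3 and KO 3 left out together, thinning to 3390805 counts (the median of 11 draws by number of calls) and, added after the data were seen, removal of a spline trend (4 degrees of freedom each) on length and GC content. The tests were tried on simulated data first. No 2 libraries of the same group were repeats of each other (chi-square per degree of freedom 14.4 to 50.9), and pairs across the groups were not checked. With 1 mouse per library, p-values measure the spread between these mice. A further germinal centre marker is not reported here.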

Additional observations from a re-analysis of the deposited data

How the results depend on the processing

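No member passed in any of the 17 alternatives, and the median of the members ran from -0.014 without WT 2 to 0.20 with library size alone. That scaling moved the median of all genes from 0.01 to 0.13, so about as much as it moved the members. Tnfaip3, Nfkbia and Rel stayed above 0 throughout. Other members, all near 0, changed sign. With the length and GC trend removed, Nfkb1 was -0.072, Nfkb2 0.099, Rela 0.076, Relb 0.13 and, of the other genes, Ikbkg -0.011. With library size alone Nfkb2 was 0.028 and Relb 0.0089. Without WT 3 and KO 3 Nfkb2 was 0.059, and with thinning Nfkbie was -0.0070. When 1 library was left out, Nfkb2 ran from -0.53 to 0.16, Nfkbie from -0.13 to 0.17, Nfkbid from -0.0096 to 0.33, Traf1 from -0.018 to 0.17, Nfkbiz from -0.060 to 0.70 and Bcl3 from -0.15 to 0.45. The causes were not tested.

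Of the other pathway genes, 1 was called higher by DESeq2 (Cd80) and 2 without a filter (Cd80 and Irf4). Their median was 0.077 with the length and GC trend removed, 0.27 with library size alone and 0.26 after thinning. Over all genes, against 8 higher and 1 lower, DESeq2 called 93 and 34, no filter 81 and 12, the length and GC fit 25 and 4, library size alone 16 and 2, the replicate block 20 higher, limma-voom 5 higher, and the fit without WT 3 and KO 3 called 1 and 0. DESeq2 size factors, upper-quartile scaling, a stricter filter (5 CPM or more in 3 or more libraries) and thinning each called 2 lower. Leaving out 1 library gave 1 to 21 higher and 0 to 5 lower, with 1 and 0 without WT 2 and also without WT 3, 3 and 0 without KO 2, 21 and 3 without KO 1 and 13 and 5 without KO 3.

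Libraries with the same replicate number resembled each other for numbers 1 and 3, but not for number 2. Their deviations from the group means correlated at 0.34, -0.052 and 0.44 across 10926 genes, and WT 2 correlated best with KO 3. The macrophage marker sums were also lowest in WT 1 and KO 1 and highest in WT 3 and KO 3, within their groups. The part of these markers in the correlations was not tested. In the fit with the replicate block Tnfaip3 was 0.72 (edgeR adjusted p = 0.272), and no member passed.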

Other observations

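The κB consensus was also looked for in the promoters of all genes, a question raised by its frequency among the members. Of the tested genes with a RefSeq window, 1048 had a match and 7590 had none. Their median log2 fold changes were 0.03 and 0.0043, with 53.0% and 50.4% above 0, and 2 and 5 genes were called higher (edgeR). Genes with these letters near the start thus lay close to the rest as a group. Among the other pathway genes 14 of 51 with a window held a match, with 6 of 22 among the target genes and 0 of 4 among the kinases. The kinases lay wholly above 0, as did the feedback genes, of which 4 of 5 held a match. A link between matches and fold changes in these lists was not tested.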
